A study of Mus musculus with 6 samples.

Results

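The genes followed here are 10 markers of B cell precursors and of transitional B cells, the newest B cells to reach the spleen: Sox4, Myb, Lef1, Cd93, Cd24a, Il7r, Vpreb3, Igll1, Rag1 and Dntt. They were chosen by name with earlier results of these data known, so counts over the 10 describe them and test nothing. Each is 1 of the 18193 genes tested on the array. Every one of the 10 had at least 1 probe set annotated with its symbol alone, 30 probe sets in all, and a gene is represented by its brightest probe set, that of the highest mean in the 6 samples. Splenic B cells of 3 Crebbp-deleted mice (CBPΔ/Δ x EµBcl2) were compared with those of 3 Crebbp-floxed mice (CBPF/F x EµBcl2), 1 Affymetrix array per mouse. Crebbp encodes the histone acetyltransferase CBP. In the floxed mice the gene carries recombination sites, and the deleted mice are labelled Δ/Δ, for its excision. The Cre used and the ages of the mice are not given in the sources used here. Both groups carry a Bcl2 transgene under the Eµ immunoglobulin enhancer, which drives the survival factor BCL2 in B-lineage cells. The spleen cells had been frozen and thawed, and B cells were obtained untouched by removing cells that bind beads against CD43.

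B cells arise in bone marrow from progenitors that depend on interleukin 7. Pro-B cells recombine the heavy chain gene with the RAG recombinase, while the polymerase TdT (Dntt) adds bases at the joins. Pre-B cells then test the new heavy chain in a pre-B cell receptor built with a surrogate light chain. Cells that complete a light chain leave for the spleen as transitional B cells, which still carry CD93 and much CD24 and lose CD93 as they mature. Pro-B cells carry CD43, the protein against which the beads were directed. Below, a level is a log2 intensity, and a difference is the Crebbp-deleted mean less the Crebbp-floxed mean, in log2 units.

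The 6 arrays had median log2 intensities from 4.27 to 4.29 and correlated with each other at 0.980 to 0.993 over all probe sets. All 4 probe sets of Crebbp stood lower in the deleted samples with no overlap between the groups, by differences from -0.97 to -0.50. Crebbp signal remained, with means at 1435224_at of 9.45 in deleted and 9.95 in floxed samples. Which part of the gene each probe set reads was not analysed here. Of 5 Bcl2 probe sets 4 stood lower in the deleted samples, 3 of them without overlap. Limma called 1 of the 5, 1437122_at (difference -0.85, adjusted p = 0.031 over all probe sets). The other 1, 1422938_at, stood higher by 0.43, also without overlap. Whether any of the 5 reads the transgene was not analysed here. The probe set of Ep300, which encodes the related acetyltransferase p300, had a difference of 0.26 (limma adjusted p = 0.470). The 8 measured genes of the pan B cell list averaged 6.92 to 13.33, at or above percentile 79.3 of all probe sets. Probe sets bind with different strength and no detection call was available. For scale, 20 genes known from other tissues, such as liver and heart, averaged from 2.13 to 5.67. By the mean of the 6 samples, Sox4, Cd93, Vpreb3 and Cd24a lay above that span. Myb, Lef1, Il7r, Rag1, Dntt and Igll1 lay within it. In the deleted samples alone, the means of Sox4 (5.54) and Cd93 (5.26) also lay within that span. By Xist and Y-linked genes, deleted samples 1 and 3 and floxed sample 1 came from males.

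Of the 10 genes 1, Sox4, passed the test over all genes (limma, Benjamini-Hochberg adjusted p under 0.05), and it was lower in the deleted samples. Over all genes 0.236% passed in that direction and 0.544% in the other. Differences were negative for 9 of the 10, against 46.6% of all genes, with a median of -0.31 against 0.01 over all genes. An unadjusted p under 0.05 with a lower level in deleted samples was seen for 5 of the 10, against 6.84% of all genes. These were Sox4, Vpreb3, Cd93, Myb and Lef1. Over all 18193 genes, 1245 stood lower and 1448 higher at that unadjusted p, counts to set beside those of the lists below. The groups did not overlap for 3 (Sox4, Vpreb3 and Cd24a), all of them lower in the deleted samples; they did not for 21.2% of all genes, 1823 lower and 2039 higher in deleted samples. Dntt alone had a positive difference, 0.04. The lowest of the 6 samples was a deleted one for 9 of the genes, Il7r excepted, and the highest was a floxed one for 8. Dntt and Igll1 had both their lowest and their highest level in a deleted sample. The share of all genes with such extremes is not given here. In bulk samples such as these, fewer cells of a type and less RNA per cell cannot be told apart.

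**Figure D1:**
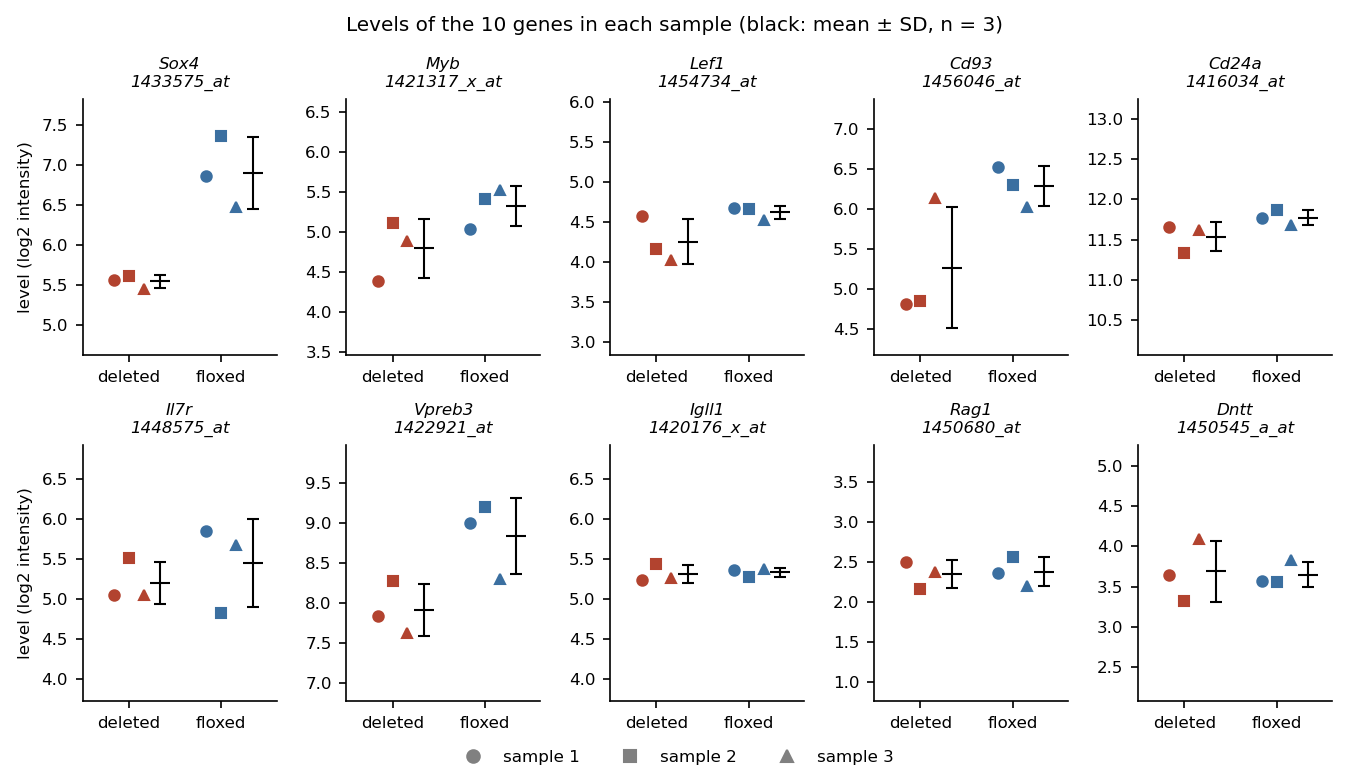
Level (log2 intensity) of each of the 10 genes at its representative probe set in the 3 Crebbp-deleted (left, red) and 3 Crebbp-floxed samples (right, blue), with the mean and SD in black; every panel spans the same height. The groups stand apart in Sox4, and only just in Vpreb3 and Cd24a. They overlap in all the other genes, and in Cd93 deleted sample 3 lies among the floxed samples.

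Sox4, an HMG-box transcription factor that pro-B cells need to develop, showed the largest difference of the 10. The gene lies at chr13:28948919-28953699 (GRCm38.p6). Its level at 1433575_at was 5.57, 5.61 and 5.46 in the deleted samples, against 6.86, 7.36 and 6.47 in the floxed samples. The deleted samples lay within 0.2 of each other, and all of them lay below the lowest floxed sample. The group means were 5.54 ± 0.08 in deleted and 6.90 ± 0.45 in floxed samples (SD, n = 3 each), a difference of -1.35 (95% interval -1.84 to -0.87). Sox4 thus fell 2.55-fold (limma adjusted p = 0.042).

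Its 8 probe sets were not uniform. Of these 5 were lower and 3 higher, and 4 separated the groups, each with lower values in deleted samples. Probe sets 1419157_at and 1419156_at had differences of -0.94 and -0.59, and 1449370_at one of -0.33. At 1419155_a_at the difference was -0.32, and deleted sample 3 (5.51) stood above floxed sample 3 (5.46). The 3 that were higher, 1455867_at, 1458332_x_at and 1443778_at, had differences of 0.04, 0.10 and 0.15, each with an interval that includes 0. Of these, 1458332_x_at and 1443778_at were dim, at percentiles 21.1 and 6.89 of all probe sets. Among the lower ones 1449370_at was also dim, at percentile 25.4. Probe set 1455867_at, at percentile 50.2, was brighter than the lower 1419157_at, at 45.3. Where each probe set lies in the Sox4 transcript was not analysed here. With the mean of all 8 in place of the brightest the difference was -0.41 and did not pass (limma adjusted p = 0.180).

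The call for Sox4 rested on having all 3 deleted samples and floxed sample 1. Without deleted samples 1, 2 and 3 in turn the differences were -1.36, -1.39 and -1.31 with limma adjusted p = 0.153, 0.106 and 0.131, and without floxed sample 1 it was -1.37 (adjusted p = 0.158). Without floxed samples 2 and 3 it was -1.12 (adjusted p = 0.039) and -1.57 (adjusted p = 0.012). The difference lay between -1.57 and -1.12 in these 6 fits. With sex as a term the difference was -1.33 (limma adjusted p = 0.105), and it was -1.35 within males and -1.30 within females.

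Promoter windows of Sox4 and Vpreb3, the members with the largest differences among those whose groups did not overlap, are shown because E proteins such as TCF3 bind the E-box letters CANNTG and govern early B cell genes. Each window runs from 250 bases before to 50 after the annotated start (RefSeq, GRCm38.p6), 5′ to 3′ on the gene's strand, with CANNTG in capitals. The start used for Vpreb3 lies inside the span given for the gene, not at its first base.
Sox4, chr13:28953650-28953949, minus strand: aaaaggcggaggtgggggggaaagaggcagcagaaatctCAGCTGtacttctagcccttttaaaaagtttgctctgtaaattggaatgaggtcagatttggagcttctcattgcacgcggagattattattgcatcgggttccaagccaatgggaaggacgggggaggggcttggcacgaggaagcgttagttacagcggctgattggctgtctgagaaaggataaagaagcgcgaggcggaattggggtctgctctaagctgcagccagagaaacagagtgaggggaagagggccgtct
Vpreb3, chr10:75948050-75948349, plus strand: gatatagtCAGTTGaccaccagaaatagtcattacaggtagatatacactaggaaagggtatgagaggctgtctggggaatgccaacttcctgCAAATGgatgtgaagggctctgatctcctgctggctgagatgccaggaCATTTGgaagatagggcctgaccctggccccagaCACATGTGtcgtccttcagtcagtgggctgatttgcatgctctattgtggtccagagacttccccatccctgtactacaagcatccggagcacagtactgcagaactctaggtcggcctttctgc
The Sox4 window held 1 match and the Vpreb3 window 5, of which a pair overlap. The letters CANNTG, which read the same on both strands, occurred in the windows of all 8 members with an entry in the promoter table, and in 72.3% of its 32851 windows. The CRE core TGACG, the letters that CREB-family factors recognise, occurred on either strand in 0 of the 11 windows of these 8 members (Lef1 has several starts), and in 20.8% of all windows. The Myb core AACNG was found in 9 of the 11 windows (7 of the 8 members), against 80.3% of all windows. The TCF/LEF core CAAAG was found in 6 of the 11 (3 members), against 53.9%. CAGGTG, one form of CANNTG, was found in 3 of the 11 (3 members), against 20.2%. Such matches are letters in a short window and do not show that a factor binds there.

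Myb encodes the transcription factor c-Myb, which progenitors and pro-B cells require and whose activation domain binds the KIX domain of CBP and p300. The gene lies at chr10:21124930-21160984. Its level at 1421317_x_at was 4.39, 5.11 and 4.89 in deleted samples, against 5.04, 5.41 and 5.52 in floxed samples. Deleted sample 2 stood above floxed sample 1, so the groups overlapped. The difference of -0.53 (95% interval -1.01 to -0.05) did not pass (limma adjusted p = 0.290), and it was -0.32 without deleted sample 1. The other probe sets of Myb, 1450194_a_at and 1422734_a_at, had differences of -0.31 and -0.28, both with intervals that include 0. The suffix _x_at marks a set with probes that can bind other transcripts, and 1450194_a_at has no such suffix.

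Lef1, an HMG-box factor through which Wnt signals act and which pro-B cells express, lies at chr3:131110297-131224357. At 1454734_at it read 4.57, 4.16 and 4.02 in deleted samples, against 4.68, 4.65 and 4.52 in floxed samples. Deleted sample 1 lay just above floxed sample 3 and the other deleted samples lay lower. The difference was -0.37 (95% interval -0.71 to -0.02, limma adjusted p = 0.307). Its dimmer probe set 1421299_a_at, with 3.20, 3.03 and 3.21 in deleted samples against 3.46, 3.71 and 3.32 in floxed samples, separated the groups with a similar difference of -0.35 (adjusted p = 0.284 over all probe sets).

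Among 15 measured relatives and partners of these factors (Sox11, Sox12, Mybl1, Mybl2, Tcf7l2, Ctnnb1, Axin2 and others) limma called 0 in either direction, 2 had an unadjusted p under 0.05, and the median difference was 0.04. Those 2 were Bcl9, a β-catenin co-activator, and the co-repressor Tle1, with differences of -0.28 and -0.36.

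Cd93, the lectin-like receptor that the antibody AA4.1 recognises on transitional B cells, is also known from endothelium, myeloid cells and plasma cells. The gene lies at chr2:148436651-148443535. Its level at 1456046_at was 4.81, 4.85 and 6.14 in deleted samples, against 6.53, 6.30 and 6.02 in floxed samples. Deleted samples 1 and 2 stood more than 1 log2 unit below every floxed sample, whereas deleted sample 3 lay between floxed samples 2 and 3. The difference was -1.02 (95% interval -1.83 to -0.21, limma adjusted p = 0.235). Probe set 1419589_at read 4.18, 4.09 and 5.46 in deleted samples, against 5.76, 5.28 and 5.03 in floxed samples, a difference of -0.78. Deleted samples 1 and 2 were again the lowest, and deleted sample 3 lay between floxed samples 1 and 2. The 3 dimmer probe sets, at or below percentile 39.8, had differences from -0.01 to 0.08.

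Without deleted sample 3 the difference of Cd93 was -1.45 and passed (limma adjusted p = 0.035). With any other sample left out it lay between -1.15 and -0.79 and did not pass (limma adjusted p = 0.261 to 0.492). Deleted sample 3 also had the highest macrophage and plasma cell levels. The macrophage and monocyte list (13 measured genes) averaged 1.29, 0.60 and 1.77 above the floxed mean in deleted samples 1, 2 and 3, against 0.77, -0.69 and -0.08 in floxed samples. Its summed intensity ran from 1499 to 3553 in deleted and from 497 to 1637 in floxed samples, and 0 of the 13 passed limma's test, with 8 higher at an unadjusted p under 0.05. The plasma cell list (12 measured genes) averaged 0.79, 1.02 and 1.97 in deleted samples, against 0.06, -0.11 and 0.05 in floxed samples. Its summed intensity ran from 12633 to 21279 in deleted and from 6408 to 7237 in floxed samples; 1 of the 12, Jchain, rose, by 1.65 (limma adjusted p = 0.011). All 12 differences were positive, with a median of 1.40, and 10 had an unadjusted p under 0.05. Over all 18193 genes, 1448 were higher at that unadjusted p. For endothelium and platelets (12 measured) the averages were 0.07, -0.02 and 0.10 in deleted samples, against -0.04, 0.07 and -0.02 in floxed samples. The part of these cells in the Cd93 values was not tested.

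Cd24a, the heat-stable antigen, is a small lipid-anchored glycoprotein that is abundant on immature B cells, erythroid cells and granulocytes. The gene lies at chr10:43579169-43584265. It was the brightest of the 10, at 11.66, 11.33 and 11.62 in deleted samples, against 11.77, 11.87 and 11.68 in floxed samples (1416034_at). The groups did not overlap, but the highest deleted and the lowest floxed sample were 11.66 and 11.68. The difference was -0.24 (95% interval -0.51 to 0.03, limma adjusted p = 0.394), and those at 1448182_a_at and 1437502_x_at were -0.30 and -0.08. Without deleted sample 2 the first was -0.13. The erythroid list (9 measured) averaged -0.02, -0.13 and 0.88 in deleted samples, against 0.12, -0.02 and -0.10 in floxed samples, and the granulocyte list (11 measured) -0.56, 0.06 and 0.83, against -0.07, -0.52 and 0.59. Summed intensities were 362 to 597 in deleted and 440 to 566 in floxed samples for the erythroid list, and 152 to 727 in deleted and 158 to 538 in floxed samples for the granulocyte list. Limma called 0 genes of either list, and 1 gene of the first and 0 of the second had an unadjusted p under 0.05; their part in the Cd24a values was not tested.

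**Figure D2:**
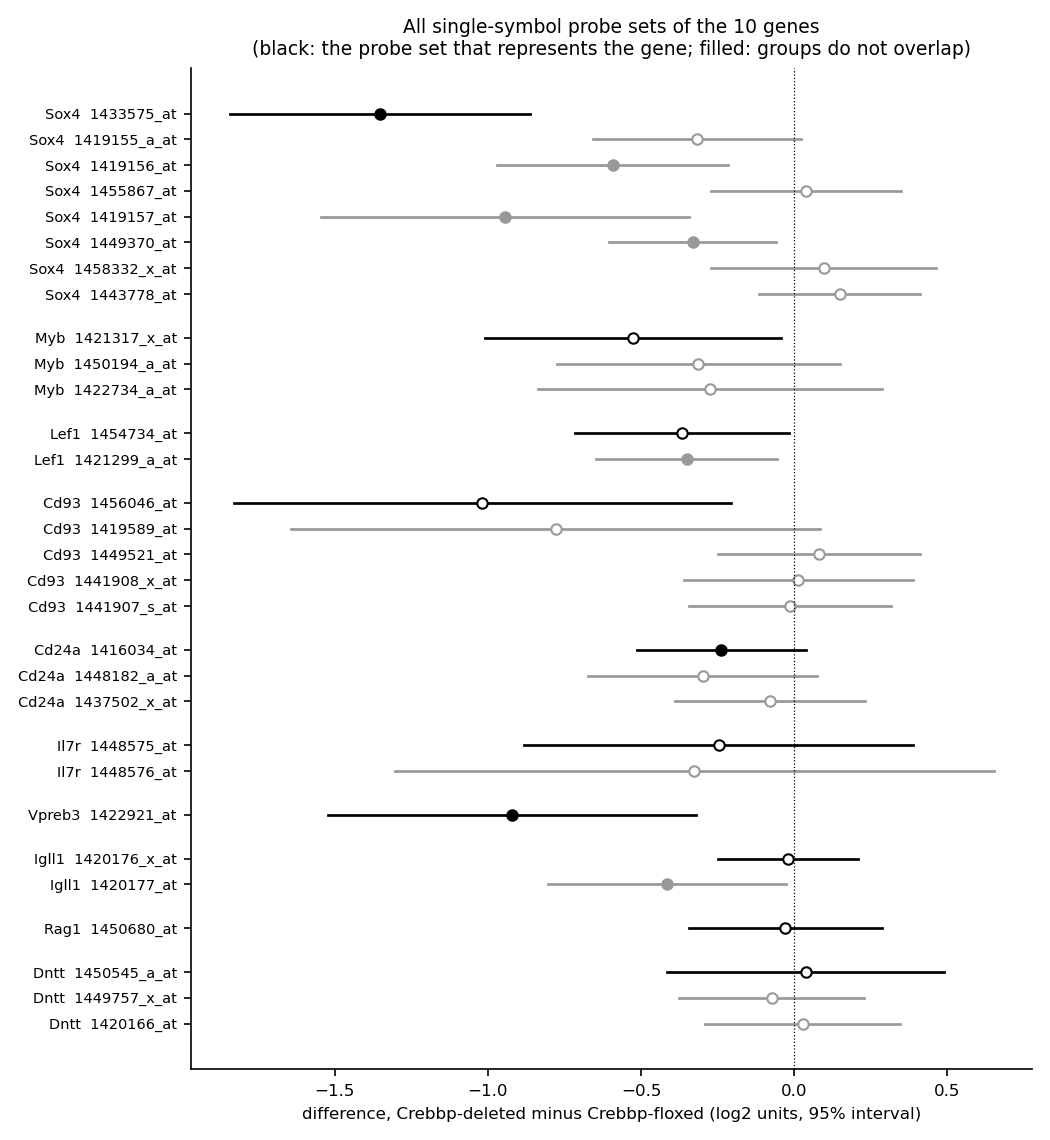
Difference, Crebbp-deleted minus Crebbp-floxed (log2 units), with its 95% interval at each of the 30 single-symbol probe sets, grouped by gene. Of the 30, 23 are below 0 and 8 separate the groups (filled points), all 8 with lower values in deleted samples.

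Over all 30 probe sets of the 10 genes, 23 differences were negative and 7 positive, against 51.4% negative over all probe sets. In 8 the groups did not overlap with lower deleted values, against 10.8% of all probe sets, and in 0 with higher deleted values, against 9.03%. Limma called 0 of the 30 when all 45037 probe sets were tested, where 0.164% passed as lower; 1433575_at of Sox4 had an adjusted p of 0.054 there.

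Il7r encodes the α chain of the interleukin 7 receptor, which pro-B cells, T cells and innate lymphoid cells use and which mature B cells lose. The gene lies at chr15:9506159-9529941. At 1448575_at it read 5.06, 5.51 and 5.05 in deleted samples, against 5.86, 4.82 and 5.67 in floxed samples. Floxed sample 2 was the lowest of the 6 and the other floxed samples the highest. The dimmer 1448576_at repeated this, with 4.28, 4.48 and 4.10 in deleted samples against 5.35, 3.54 and 4.94 in floxed samples. The differences were -0.25 (95% interval -0.88 to 0.39, limma adjusted p = 0.732) and -0.33, and the first was -0.044, -0.56 and -0.14 without floxed samples 1, 2 and 3 in turn.

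Floxed sample 2 was also the lowest for lymphoid cells other than B cells. The T cell list (14 measured) averaged 0.15, 0.24 and 0.21 in deleted samples, against 0.10, -0.25 and 0.15 in floxed samples, and the NK and innate lymphoid list (9 measured) -0.06, 0.09 and 0.17, against -0.10, -0.34 and 0.44. The summed intensity of the T cell list did not share that order, with 1295 to 1331 in deleted and 1163 to 1417 in floxed samples, the highest in floxed sample 2. That of the NK list ran from 794 to 907 in deleted and from 424 to 1051 in floxed samples. Limma called 0 genes of either list; 1 T cell gene, Cd28, which plasma cells also carry, had an unadjusted p under 0.05 and a difference of 1.48. The part of these cells in the Il7r, Lef1 and Myb values was not tested.

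Of 15 other measured genes of interleukin 7 and related signalling (ligands, a receptor chain, kinases, STATs and targets) limma called 0, and 0 had an unadjusted p under 0.05. The median difference was 0.04. The STAT5 genes Stat5a and Stat5b had differences of 0.04 and -0.03, the feedback inhibitor Socs2 one of 0.78 and the kinase Pim1 one of 0.48. The groups did not overlap for the receptor kinase Jak1, lower in deleted samples by a difference of -0.20 (limma adjusted p = 0.379).

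Vpreb3 resembles the VpreB part of the surrogate light chain and is known to bind newly made heavy chains inside precursor B cells. The gene lies at chr10:75943024-75949657 and has 1 probe set, 1422921_at. Its level was 7.84, 8.28 and 7.63 in deleted samples, against 9.01, 9.20 and 8.30 in floxed samples. The groups did not overlap, but deleted sample 2 and floxed sample 3 were 0.03 apart. The means were 7.91 ± 0.33 in deleted and 8.84 ± 0.47 in floxed samples (SD, n = 3 each), a difference of -0.92 (95% interval -1.52 to -0.32, limma adjusted p = 0.161). Without floxed sample 3 the difference was -1.19 and passed (adjusted p = 0.049). It was -1.27 within males and -0.48 within females, and the difference between the sexes did not pass (limma adjusted p = 1.0 for the interaction).

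Floxed sample 3, the lowest floxed sample for Sox4, Vpreb3, Cd93, Lef1 and Cd24a and the highest for Myb, stood apart in germinal centre and cell cycle genes. The germinal centre list (7 measured) averaged 0.64, 0.64 and 0.50 in deleted samples, against -0.48, -0.74 and 1.22 in floxed samples. The cell cycle list (15 measured) averaged -0.30, -0.20 and 0.40 in deleted samples, against -0.36, -0.58 and 0.93 in floxed samples. Limma called 0 genes of either list. Germinal centre and dividing B cells are known to express Myb; their part in these values was not tested.

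The remaining members work in the pre-B cell receptor and in V(D)J recombination and are Igll1, Rag1 and Dntt; none passed the test. Igll1, the λ5 part of the surrogate light chain, lies at chr16:16860671-16863985. At 1420176_x_at it read 5.23, 5.44 and 5.26 in deleted samples, against 5.36, 5.27 and 5.37 in floxed samples, a difference of -0.02 (95% interval -0.24 to 0.20, limma adjusted p = 0.951). Its second probe set 1420177_at, which lacks the cross-binding suffix, was dimmer and lower in every deleted sample, with 3.42, 3.50 and 2.99 in deleted samples against 3.63, 3.58 and 3.95 in floxed samples. The difference there was -0.42 (adjusted p = 0.333 over all probe sets).

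Rag1, the catalytic subunit of the recombinase, lies at chr2:101638252-101649532 and was the dimmest member, at percentile 8.39 of all probe sets. It read 2.50, 2.16 and 2.38 in deleted samples, against 2.36, 2.56 and 2.20 in floxed samples, a difference of -0.03 (95% interval -0.34 to 0.28, limma adjusted p = 0.951). Dntt lies at chr19:41029275-41059525. At 1450545_a_at it read 3.65, 3.32 and 4.09 in deleted samples, against 3.57, 3.56 and 3.83 in floxed samples, a difference of 0.04 (95% interval -0.41 to 0.49, limma adjusted p = 0.955). Its other probe sets had differences of -0.07 and 0.03. A p above the threshold does not show that the groups are alike.

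The partners of these proteins, Vpreb1 of the surrogate light chain and Rag2 of the recombinase, were looked up after the values of the members were seen. They averaged 3.67 and 3.02 in deleted samples, against 3.50 and 3.02 in floxed samples, differences of 0.16 and -0.003 (limma adjusted p = 0.625 and 0.994). Of 10 measured genes of V(D)J recombination and end joining limma called 0, 0 had an unadjusted p under 0.05, and the median difference was -0.05. The end-joining ligase gene Lig4 had the smallest p, with a difference of -0.50 (limma adjusted p = 0.340).

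**Figure D3:**
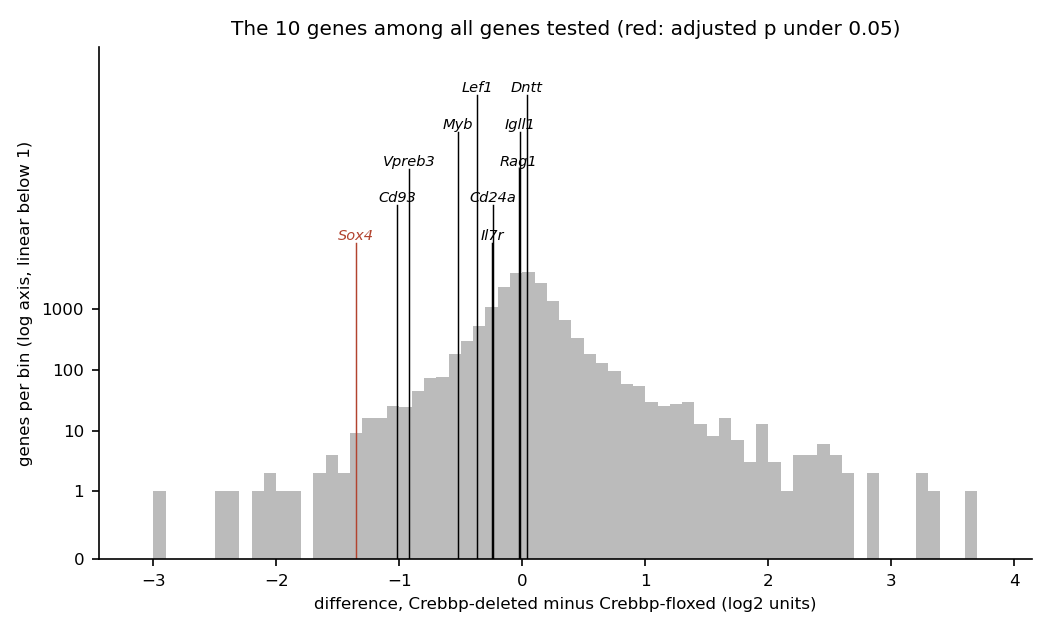
Number of genes by difference, Crebbp-deleted minus Crebbp-floxed (bins of 0.1 log2 units, grey, log axis), with the 10 genes marked by lines whose height carries no value. Sox4 (-1.35, red) passed the test; Cd93 and Vpreb3 lie near -1, and Rag1, Igll1 and Dntt lie at the centre.

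Other genes of early B cell identity had a median difference near 0. Of 17 measured genes of a second precursor list limma called 0, 2 had an unadjusted p under 0.05, and the median difference was -0.05, with 11 negative. Those 2 were Blnk, the adaptor of pre-B and B cell receptors, and Ikzf1, the lymphoid factor Ikaros, at -0.29 and -0.29. The forkhead factor Foxo1, which drives Rag1 and Il7r in precursors, had a difference of -0.45 (limma adjusted p = 0.377).

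Lists of mature B cell genes also had negative medians. Of 8 measured pan B cell genes 1, Cd79a, the Igα chain, fell (difference -1.11, limma adjusted p = 0.009), 8 differences were negative and the median was -0.18. Of 10 follicular genes limma called 0, with 4 lower and 2 higher at an unadjusted p under 0.05, and the median was -0.35. The 3 with the smallest p were Fcer2a (difference -1.03, limma adjusted p = 0.057), Cxcr5 (-0.57) and Btla (-0.67), all without overlap. The 2 higher were Klf2 and Cd55, by 0.68 and 0.50. The follicular list averaged -0.16, -0.27 and -0.42 in deleted samples, against -0.13, 0.17 and -0.04 in floxed samples. Of 12 marginal zone genes limma called 0, with 3 lower and 1 higher at an unadjusted p under 0.05, and the median was -0.15. For the 10 precursor and transitional genes it was -0.31. Without deleted sample 1, and likewise without floxed sample 1, limma called neither Cd79a nor Jchain. The pan B cell list averaged -0.23, -0.36 and -0.32 in deleted samples, against -0.07, 0.12 and -0.05 in floxed samples, and its summed intensity ran from 28086 to 29142 in deleted and from 32490 to 36840 in floxed samples. Of 11 dendritic cell genes limma called 0, with 1 higher at an unadjusted p under 0.05 and a median of 0.04. The part of a change in the mix of cells was not tested.

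**Figure D4:**
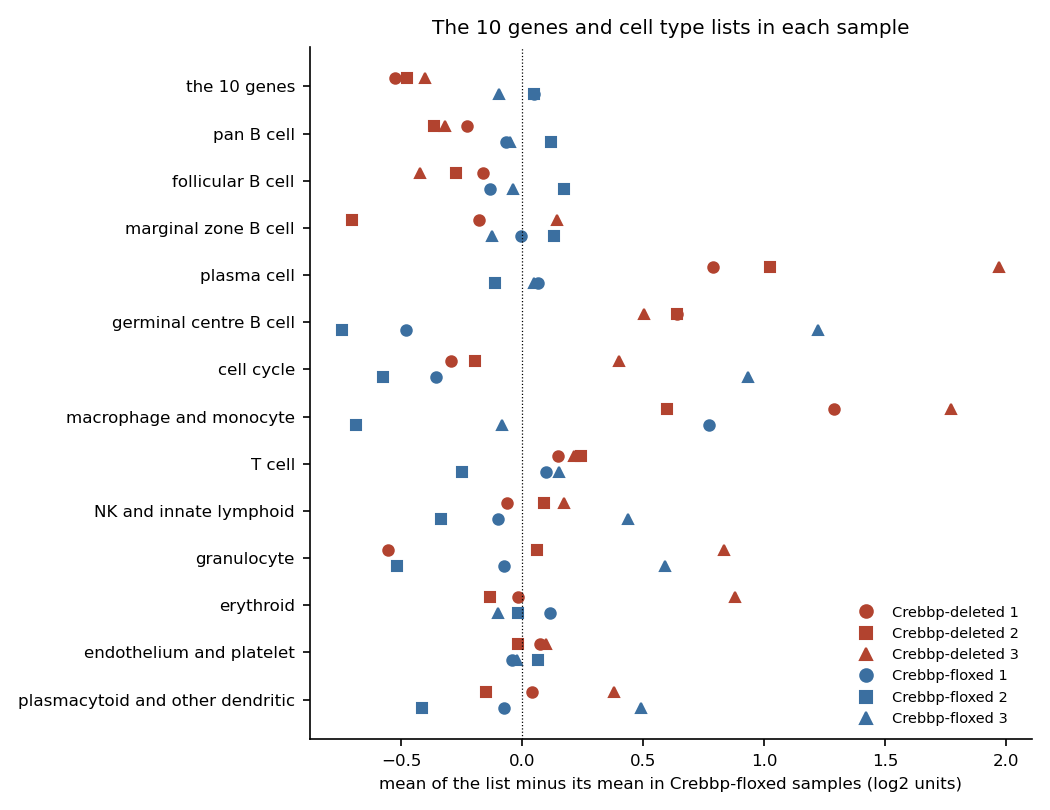
Mean of each list minus its mean in Crebbp-floxed samples (log2 units), for the 10 genes and 13 other lists in each Crebbp-deleted (red) and Crebbp-floxed sample (blue). The 10 genes averaged -0.53 to -0.40 in deleted and -0.09 to 0.05 in floxed samples. The plasma cell list stood higher, and the pan B cell and follicular B cell lists lower, in all deleted than in all floxed samples.

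Averaged over the 10 genes, deleted samples 1, 2 and 3 stood at -0.53, -0.48 and -0.40 relative to the floxed mean, against 0.05, 0.05 and -0.09 in floxed samples. The separate genes did not share 1 order of samples. Among deleted samples Sox4, Vpreb3 and Lef1 were lowest in sample 3, Cd93 and Myb in sample 1 and Cd24a in sample 2. Among floxed samples Sox4, Vpreb3 and Cd24a were highest in sample 2, Cd93 and Lef1 in sample 1 and Myb in sample 3.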

How the data were processed

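The 3 samples of each group come from separate mice per the series' design text. For each array the deposited table gives 1 intensity at each of 45101 probe sets. The submitters' processing notes name RMA, with its version not given in the sources used here. The intensities, which the authors deposited on a linear scale (2.96 to 17022), were log2-transformed and not normalized further. Arrays have no read depth, and their number limits the precision.

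Probe sets were named through the platform annotation: 34945 had 1 symbol, 932 several and 9160 none in the table used, and 64 were controls. Each of 18193 genes was represented by its probe set with the highest mean. The comparison used limma 3.58.1 (R 4.3.3; lmFit, eBayes, two-sided, no covariates), with Benjamini-Hochberg adjustment over all genes, and once over all 45037 non-control probe sets. The procedure was tested on simulated data. A permutation of 3 against 3 samples cannot give a p under 0.1, so none was run. The members and the gene lists were chosen with earlier results of these data known. Lists are described by counts and medians, without a set test. Genes named from a list are those past the threshold and the 3 with the smallest p, with the list's other genes named only as stated; Stat5a, Stat5b and the relatives of the SOX, MYB and TCF factors were named for their roles. Alternatives covered normalization, an offset of 16, dim genes, probe set choice, limma settings, the threshold, the replicate number as a block, sex as a term and leaving out each sample. Fits within each sex and without probe sets of suffix _x_at or _s_at were added after seeing the data. Plots were made in matplotlib 3.10.9 (Python 3.11.15).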

Additional observations from a re-analysis of the deposited data

How the results depend on the processing

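Over 198 fits of the 10 genes under other settings, 171 kept the direction and the side of the threshold, 10 lost the call of Sox4 and 2 gained one (Cd93 without deleted sample 3, Vpreb3 without floxed sample 3). The other 15 changed sign, all of them in Igll1, Dntt, Rag1 and Il7r. The remaining 6 genes kept their direction in every fit. Only Sox4 had a call to lose, and it was lost in 10 of the 20 fits of Sox4. The 142 called genes (43 lower, 99 higher) numbered 222 with an intensity trend and robust variances (84 lower), 449 at an adjusted p under 0.1 (196 lower and 253 higher) and 37 with sex as a term (10 lower and 27 higher). With 16 added to the intensity 63 were higher, and over all probe sets 74 were lower. Within males and within females limma called 0 genes and 0 of the 10 (1798 and 1237 genes at an unadjusted p under 0.05), where a lone sample of a group is assumed to vary like the others. Leaving out each sample gave 0 to 226 genes, 0 to 65 lower and 0 to 172 higher; the 0 was without floxed sample 1 (1990 genes at an unadjusted p under 0.05). It gave 0 to 2 of the 10 genes as lower, and 0 to 2 lower and 0 to 9 higher among 213 measured genes of the other lists, where the full data had 1 and 1 and sex as a term 1 and 2. Sox4 was not called, so 0 of the 10 were, with sex as a term (adjusted p = 0.105), with the offset of 16 (adjusted p = 0.075) or with the mean of its probe sets (adjusted p = 0.180).

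The median difference of the 10 genes, -0.31, was -0.22 with the offset, -0.45 over the 8 that passed the filter on dim genes, -0.39 with the most variable probe sets, -0.39 within males, -0.40 within females and -0.42 to -0.27 without each sample. Igll1 turned to 0.022 after quantile normalization, 0.0055 with sex as a term and 0.12 within females, and spanned -0.084 to 0.020 without each sample. With its most variable probe set, or without probe sets of suffix _x_at or _s_at, Igll1 was -0.42. With the mean of its probe sets it was -0.22, and it was not called in any of these fits. Dntt turned to -0.0025 with the mean of its probe sets, -0.032 with sex as a term and -0.37 within females, and spanned -0.16 to 0.22 without each sample. Rag1 was 0.080 within males and -0.12 to 0.066 without each sample, and Il7r 0.26 within females. The cause of these shifts was not tested. Whether the replicate numbers pair the samples was not settled: same-numbered deviations correlated at 0.03, 0.10 and 0.006. Deleted samples 1 and 2 correlated best with the floxed sample of their own number, and deleted sample 3 with floxed sample 1 (0.08). With the number as a replicate block limma called 126 genes, and Sox4 passed (adjusted p = 0.036). No other of the 10 genes passed there, Vpreb3 being the nearest (limma adjusted p = 0.053). Dim signals limit what can be said of Rag1 and Dntt. Myb, Lef1, Il7r and Igll1 also lay within the levels of genes known from other tissues, which limits what can be said of them.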
